A study of Mus musculus with 21 samples.

Results

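Phase II conjugation enzymes were examined in RNA from mouse colon and ileum, as the 62 of 21441 genes whose symbols name a glutathione S-transferase of the alpha, kappa, mu, omega, pi, theta or zeta class, a microsomal glutathione S-transferase, a UDP-glucuronosyltransferase or a sulfotransferase. The rule reads the symbol and no measured value. Levels are FPKM (fragments scaled to transcript length and to library size), which are per length and can be compared between genes. The libraries came from 21 samples labelled as intestinal epithelium of C57BL6J mice aged 9 to 11 weeks.

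The KO groups (4 colon, 4 ileum) have the genotype Villin-CreERT2 VDR f/f, in which a villin-driven inducible Cre targets floxed Vdr, the vitamin D receptor gene, in intestinal epithelium. How and when the Cre was induced is not given in the sources used here. The other groups are CDX2-VDR transgenic mice, labelled as lacking endogenous VDR and expressing human VDR in the distal intestine only. They were either uninjected (4 colon, 3 ileum) or treated (3 colon, 3 ileum) with 3 injections of 1,25D3, the active vitamin D hormone, at 1 ng per g of body weight, 48, 24 and 6 h before the end. Both KO and transgenic mice thus lack the mouse receptor in the epithelium by their labels, and no group with an intact receptor was among these samples. All KO and treated samples are labelled male, whereas 3 of 4 uninjected colon and 2 of 3 uninjected ileum samples are labelled female, so genotype or treatment cannot be fully told apart from labelled sex in comparisons with the uninjected groups. In each tissue 3 of 4 KO samples are labelled 11 weeks old and the other 9, all treated samples 9, and the uninjected samples 9 or 10, so in comparisons with KO the groups cannot be fully told apart from age either. The labels name no animal or litter, so the tests measure the spread between these samples only.

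Conjugation makes reactive or poorly soluble molecules easier to excrete. Glutathione S-transferases join glutathione to electrophiles, UDP-glucuronosyltransferases attach glucuronic acid to bilirubin, bile acids, steroids and drugs, and sulfotransferases transfer sulfate from the donor PAPS to phenols, catecholamines and sterols. In the gut these enzymes act on food compounds, bacterial products and hormones before they reach the blood.

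Several members are near-identical copies, which bears on every level given for them. Gstp1 (chr19:4035411-4037921, minus strand, mm9) and Gstp2 (chr19:4040291-4042221, minus strand), neighbouring pi-class genes, have coding sequences of 633 bases that differ at 12 positions. Their first 120 coding bases, which hold 6 of these differences, are shown with the differing bases in capitals, from the GENCODE vM1 transcripts.
Gstp1: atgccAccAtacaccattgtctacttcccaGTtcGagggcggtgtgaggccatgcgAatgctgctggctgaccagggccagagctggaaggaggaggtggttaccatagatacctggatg
Gstp2: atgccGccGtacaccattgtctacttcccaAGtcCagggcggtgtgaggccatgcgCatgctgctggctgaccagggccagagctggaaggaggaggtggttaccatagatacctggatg
The phenol-conjugating Ugt1a6a (chr1:89999827-90116577, plus strand) and Ugt1a6b (chr1:89999827-90115578, plus strand) differ at 7 of 1596 coding bases, and coding bases 698 to 817 hold 5 of the differences.
Ugt1a6a: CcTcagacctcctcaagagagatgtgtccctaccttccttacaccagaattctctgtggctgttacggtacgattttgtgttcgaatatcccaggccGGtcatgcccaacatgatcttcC
Ugt1a6b: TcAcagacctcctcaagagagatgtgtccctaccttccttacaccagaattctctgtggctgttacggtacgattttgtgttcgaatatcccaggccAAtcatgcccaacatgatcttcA
Of all stretches of 50 bases in a member's longest transcript, the share also present in another gene was 67.5% for Gstp1, 67.9% for Gstp2, 89.7% for Gsta1 and 58.2 to 92.2% for the genes of the Ugt1a locus, which share their last exons. It was 41.1% for Ugt2b5, 17.3% for Gstm3, 14.8% for Gstm1, 0.3% for Ugt2b36, 1.5% for Ugt2b34, and 0% for Sult1a1, Sult2b1, Sult1d1 and the 3 Mgst genes. How reads that match several genes were shared out is not given in the sources used here, so the split of expression within the Gstp, Gsta1 and Ugt1a groups is uncertain. The level of Ugt2b5, whose coding sequence is 95.1% identical to that of Ugt2b38, is in part uncertain too.

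The members lie mostly in clusters. Chromosome 5 holds 12 of them (the Ugt2 genes with position, Sult1b1, Sult1d1 and Sult1e1), chromosome 1 holds 10, chromosome 7 holds 9 and chromosome 3 holds 8, among them all 7 Gstm genes. In the RefSeq promoters (GRCm38.p6, 250 bases before to 50 after a transcription start), 54 members had at least 1 entry, with 65 promoters in all. The antioxidant response element core TGACNNNGC, searched on both strands, was found in 4 of the 65 (6.15%), those of Gsta3, Gstm5, Gstm7 and Mgst1, against 12.4% of all 32851 promoters. The xenobiotic response element core GCGTG occurred in 12 of 65 (18.5%) against 32.4%. A direct repeat of AGGTCA with 3 bases between, the idealised vitamin D receptor motif, was in 0 of the 65 and in 2 of all promoters. These matches are descriptions of the letters in these windows.

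Of the 62 members, 37 had a mean of at least 1 FPKM in at least 1 comparison and entered a test, 34 of them in all 6 comparisons, and 25 entered none. A total of 6 members were listed at 0 in all 21 libraries: Sult2a1, Sult2a2, Sult2a4, Sult2a5, Sult2a6 and Sult3a1. The Sult2a enzymes sulfate bile acids and hydroxysteroids and are known mainly from liver. Another 17 were above 0 in some library but under 1 FPKM in every one, among them Sult1e1, the estrogen sulfotransferase, Gsta2, and Ugt1a2, Ugt1a5, Ugt1a9 and Ugt1a10 of the Ugt1a locus. In contrast, 33 members reached 1 FPKM in every colon library and 30 in every ileum library.

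Summed over all members, the level was 3309 to 7127 FPKM in the 11 colon libraries (median 5207) and 2102 to 6476 in the 10 ileum libraries (median 3226). The microsomal transferases made up the largest family share in the median library, 34.3% of the members' sum in colon (26.9 to 42.8%) and 37.8% in ileum (30.2 to 40.3%). The pi class followed with a median of 20.8% in colon and 21.5% in ileum. Sulfotransferases held 13.7 and 13.4%, and the Gstt, Gsto, Gstk and Gstz genes together 12.5 and 13.4%. The mu class held 8.64% in colon and 4.24% in ileum. The alpha class stood at 2.23 and 2.33%, Ugt1 at 5.55 and 2.53% and Ugt2 at 3.64 and 4.49%. Both Ugt3 genes, whose enzymes use other sugars than glucuronic acid, summed to a median of 0.0466 FPKM in colon and 0 in ileum.

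**Figure D1:**
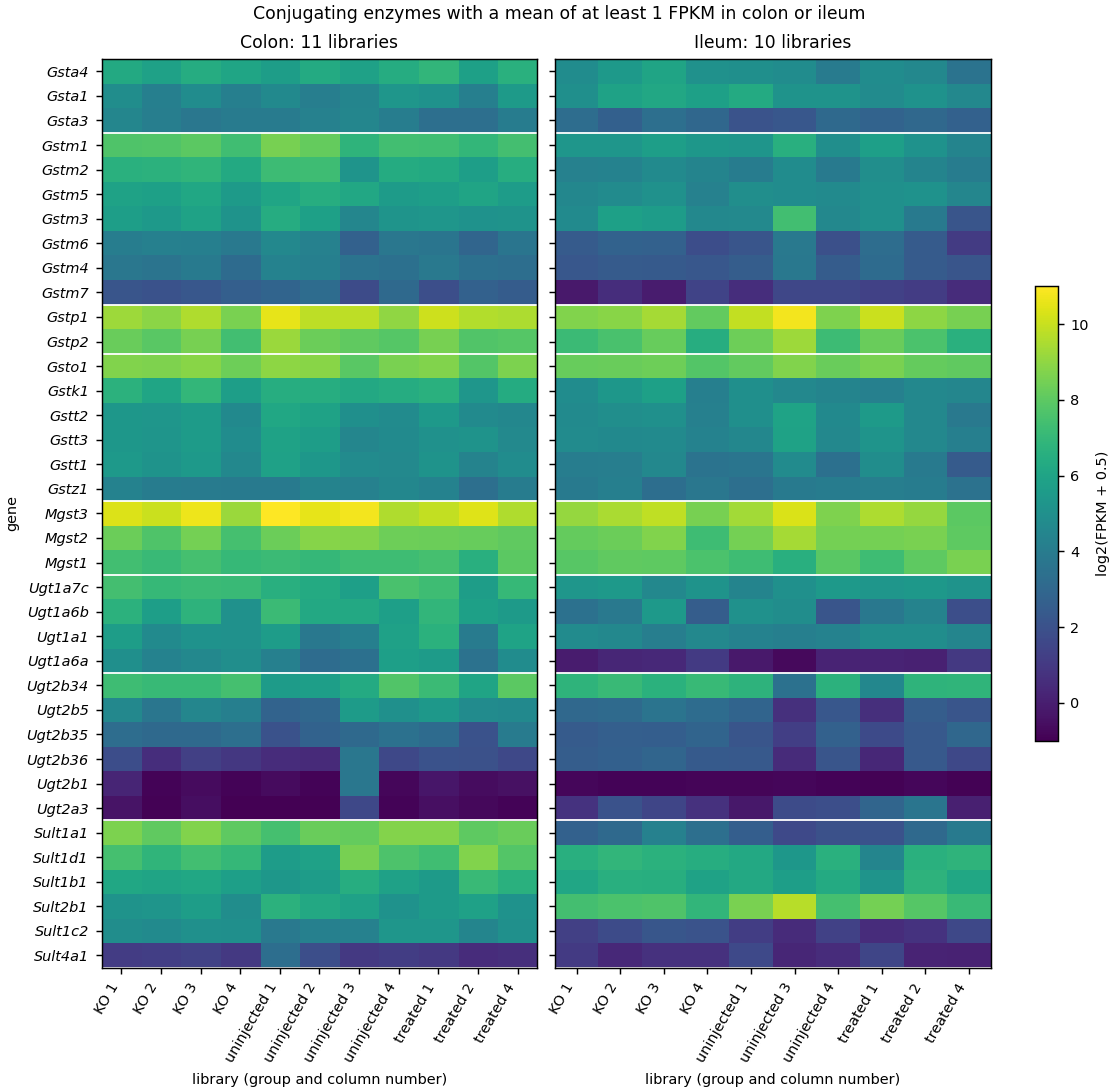
Level of the 37 conjugating enzymes with a mean of at least 1 FPKM in colon or ileum, as log2(FPKM + 0.5), with 1 column for each library and white lines between families. Mgst3 and Gstp1 are the brightest rows, Sult1a1 is bright in the colon panel only, and Sult2b1 is brighter in the ileum panel.

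Glutathione S-transferases were led by the membrane-bound Mgst3, which also has leukotriene-forming activity. Mgst3 ranged from 589.5 to 2206 FPKM in colon, with a median of 1304, and from 254 to 1297 in ileum, with a median of 595. Mgst2 had medians of 315 in colon (174 to 448) and 358 in ileum (153 to 659). Gstp1 had a median of 766 in colon (381 to 1505) and 482 in ileum (281 to 1767), and Gstp2 269 (163 to 591) and 191 (89.5 to 603). The pi pair reached its highest level in the same libraries, Colon uninjected 1 and Ileum uninjected 3. Libraries are named by tissue, group and column number; for the treated groups and the uninjected ileum group that number ties a column to its group and not to 1 labelled sample.

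The omega-class Gsto1, which reduces disulfides and dehydroascorbate, was the steadiest of the abundant members, with 223 to 503 FPKM in colon (median 412) and 223 to 420 in ileum (median 299). Gstk1, an enzyme of mitochondria and peroxisomes, had medians of 85.8 in colon (38.8 to 124) and 23.8 in ileum (17.4 to 55.1). Gstt2 of the theta class had medians of 39.6 (23.2 to 70.9) and 27.8 (13.9 to 61.2). In the mu class, Gstm1 had a median of 170.4 in colon (112 to 368) and 39.2 in ileum (20.7 to 94.1). Gstm2 followed with 90.0 in colon (36.3 to 157) and 20.3 in ileum (14.4 to 29.5), whereas Gstm3 ranged from 3.99 to 166 in ileum around a median of 25.5. In the alpha class, Gsta4, which conjugates aldehydes from lipid peroxidation, had a median of 76.9 in colon (50.4 to 118) and 28.5 in ileum (11.5 to 63.7). Gsta1 had medians of 25.4 (17.2 to 46.0) and 35.3 (24.0 to 80.0).

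Among glucuronosyltransferases, Ugt2b34 and Ugt1a7c were the highest in both tissues. Ugt2b34 ranged from 48.3 to 250.4 FPKM in colon (median 137) and from 10.6 to 141 in ileum (median 109). Ugt1a7c had medians of 133 in colon (51.2 to 188) and 37.3 in ileum (21.0 to 45.0). Ugt1a1, the bilirubin enzyme, had medians of 34.2 (13.6 to 99.5) and 22.8 (16.8 to 29.2), and Ugt1a6b 74.6 (33.6 to 146) and 13.9 (3.14 to 42.4). Ugt2b5 of the steroid-conjugating Ugt2b group had medians of 23.9 (6.54 to 47.8) and 6.04 (1.05 to 11.8). Ugt3a2 and Ugt3a1 had their highest values, 1.81 and 0.909, in Colon uninjected 3.

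The sulfotransferases of the colon were led by Sult1a1, the phenol sulfotransferase, with a median of 303 FPKM (173 to 443), and Sult1d1, known for catecholamines, with 166 (49.0 to 419). In ileum Sult2b1, which sulfates cholesterol and other sterols, was highest with a median of 201 (119 to 839), followed by Sult1d1 with 95.6 (21.5 to 121). Sult1b1, known for thyroid hormones, had medians of 63.2 in colon and 73.1 in ileum.

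Colon and ileum lie in tables that were scaled separately, so their levels are set side by side as a description without a test. Of the 37 members with a mean of at least 1 FPKM in either tissue, 9 had every colon library above every ileum library, which is 24.3% against 4.72% of all 12828 genes. These were Sult1a1, Sult1c2, Ugt1a6a, Ugt1a7c, Gsta3, Gstm1, Gstm2, Gstm5 and Gstm7. Sult1a1 (chr7:133816379-133819946, minus strand, mm9) had a mean of 323 FPKM in colon and 8.09 in ileum, a 39.9-fold ratio, with 173 as the lowest colon and 18.8 as the highest ileum value. Sult1c2 had means of 27.5 and 2.19 (12.5-fold), and Gstm1 201 and 44.4 (4.53-fold). Ugt1a7c had 122 and 35.7 (3.42-fold), and Ugt1a6a 25.7 in colon and 0.739 in ileum, although its reads are largely shared with the other Ugt1a genes. Sult2b1 (chr7:52985353-53014982, minus strand) was the 1 member, 2.7% against 3.34% of all genes, with every ileum library above every colon library, at means of 281 in ileum and 51.0 in colon (5.52-fold). The nearest pair of Sult2b1 values was 119 in Ileum KO 4 and 103 in Colon uninjected 1. With each library centred on its median, Gsta3 and Sult2b1 left these sets, and 8 and 0 members remained. In bulk tissue, fewer cells of a type and less RNA per cell cannot be told apart.

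**Figure D2:**
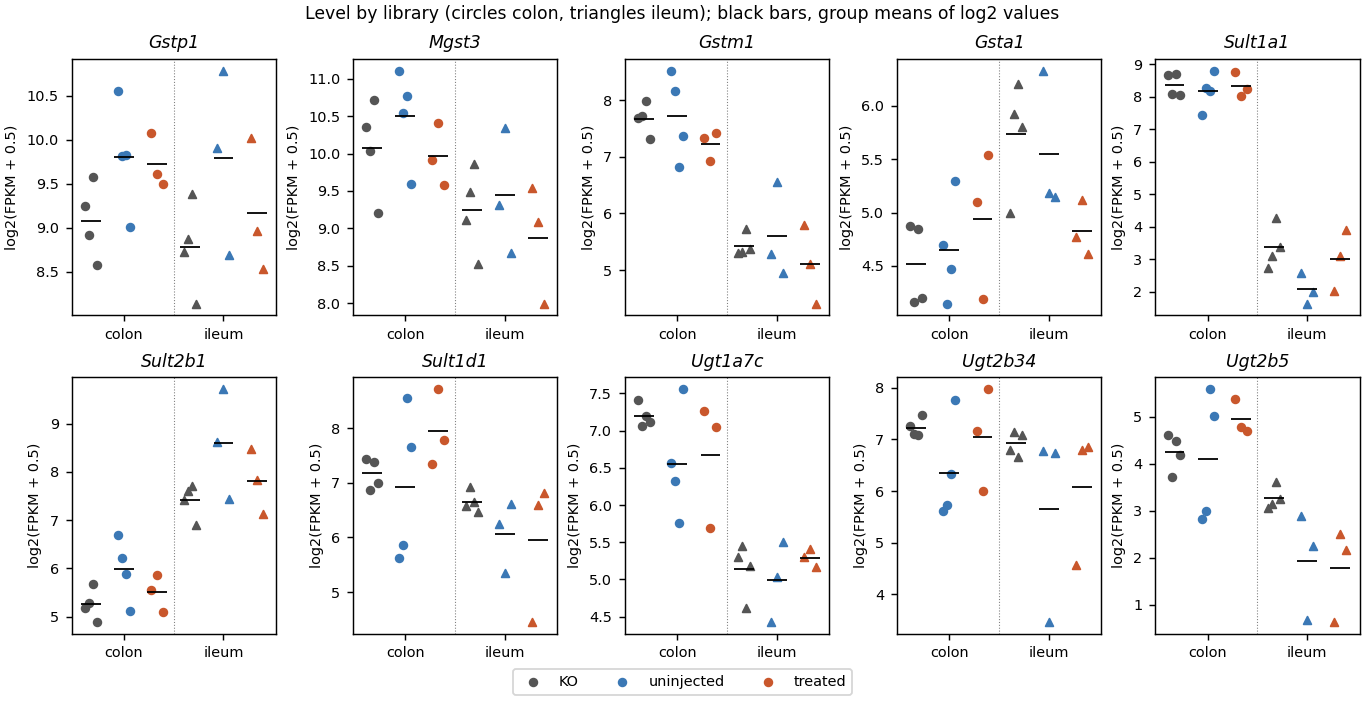
Level of 10 members in every library as log2(FPKM + 0.5), colon as circles and ileum as triangles, with the mean of each group as a black bar. Sult1a1 is high in every colon library and Sult2b1 in every ileum library, while the groups of a tissue overlap for most members.

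Some libraries stood apart. Ileum uninjected 3 and Ileum treated 1 had log2 levels that rose by 0.99 and 0.98 per 10% of transcript GC content relative to the tissue mean, against -0.53 to 0.05 in the other ileum libraries, and Colon uninjected 1 and 2 had slopes of 0.86 and 0.45 against -0.54 to 0.06. The acinar marker sum, for digestive enzymes of the pancreas, reached 93696 FPKM in Colon uninjected 3, 28604 in Colon KO 2 and 12948 in Colon treated 4, against 122 to 782 in the other 8 colon libraries. Colon uninjected 3, labelled female, had 12.1 FPKM of the Y-linked Ddx3y, against 0.0979 and 0.209 in Colon uninjected 1 and 2. The colon libraries labelled male had 11.8 to 20.4. In ileum Ddx3y was 1.61 in Ileum treated 1, of a group labelled male, and 2.32 in Ileum uninjected 3. It was 0.0347 in Ileum uninjected 1 and 8.98 to 14.1 in the other ileum libraries. Both values in between came from the ileum libraries with the steep GC slopes, whose part in them was not tested. Ddx3y thus does not settle the sex of Ileum treated 1. Colon treated 1 had 0.1 FPKM of the colon gene Hoxb13, against 41.0 to 457 in the other colon libraries. Mouse Vdr was 20.6 to 23.5 FPKM in KO colon and 12.7 to 34.0 in uninjected colon; since the deleted stretch is not known here, this value does not check the genotype. Recovered read depth was 8.51 to 34.8 M reads in colon and 13.0 to 42.3 M in ileum, from counts that are too high for some genes.

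The first comparison set mice with the transgenic receptor and no injected hormone against KO mice. In colon, no member passed the test between uninjected transgenic and KO samples: limma with Benjamini-Hochberg adjustment called 0 of 36 tested members, against 0.0804% of all genes (10 of 12437). At an unadjusted 0.05, 0 of 36 members passed against 4.6% of all genes, limma's voom on recovered reads called 0 of 34, and groups did not overlap for 0 members against 2.71% of all genes. The median member's 95% interval reached 0.77 to each side on the log2 scale. The median log2 difference was 0.02 for members and -0.01 for all genes tested, with 18 members higher and 18 lower. Of 9 marker lists for cell types, the summed level of 1 did not overlap between these groups, that of 3 endothelial genes (13.5 to 18.1 FPKM in KO and 3.35 to 12.3 in uninjected colon). Log2 differences here and below are of FPKM + 0.5, which understates changes of low genes.

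Sult2b1 had the smallest p in that comparison. It stood at 35.8, 38.1, 50.6 and 29.1 FPKM in the KO libraries 1 to 4 and at 103, 74.1, 58.6 and 34.3 in the uninjected ones. Uninjected 1, 2 and 3, labelled female, were above all KO libraries, and uninjected 4, labelled male, was among them. The log2 difference was 0.72 (SE 0.33, limma adjusted p = 0.721). Mgst2 stood at 315, 208, 357 and 174 in KO and 315, 448, 435 and 330.4 in uninjected colon, and the groups overlapped (0.58, SE 0.28, limma adjusted p = 0.721). Ugt2b34 stood at 152, 137, 134 and 176 in KO and 48.3, 52.8, 79.4 and 217 in uninjected colon. Its 3 libraries labelled female were below all KO libraries and the male one above them, with a log2 difference of -0.87 (SE 0.43, limma adjusted p = 0.721). Without Colon uninjected 4 it was -1.34, with a limma adjusted p of 0.0503. For Sult2b1 and Ugt2b34 this split followed the sex labels but not Ddx3y. Among the KO libraries, all labelled male, KO 4 likewise had the lowest Sult2b1 (29.1) and the highest Ugt2b34 (176). Uninjected 3, labelled female, had Ddx3y at 12.1 FPKM, within the range of the colon libraries labelled male. Gstp1, Gstp2 and 2 of 3 Mgst genes were higher and 3 of 4 Ugt1 and 3 of 5 Ugt2 genes lower, none past the test. Ugt2b1, a higher Ugt2 gene at 0.90, passed the filter on low values through uninjected 3. Libraries uninjected 1 and 2 were those with the steep GC slopes; Sult2b1 has a transcript GC content of 55.3% and Ugt2b34 38.8%, and with each library's GC and length trend removed their differences were 0.43 and -0.44.

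The next comparison asked about hormone injection in transgenic mice. In colon, treated against uninjected, limma called 0 of 36 tested members and 0% of 12567 genes. Without adjustment, 0 members passed 0.05 against 1.14% of genes, voom called 0 of 34, and the groups did not overlap for 2 members (5.56% against 1.37% of genes), Sult4a1 and Mgst2, both lower. The members' median log2 difference was -0.29, against -0.01 for all genes, and the median interval reached 0.96 to each side. The sum of 4 goblet cell markers, for mucus-secreting cells, was 6203 to 12151 FPKM in uninjected and 4060 to 5747 in treated colon, and its part in these differences was not tested. All 7 Gstm genes (-0.50 to -0.30) and all 6 Gstt, Gsto, Gstk and Gstz genes (-0.53 to -0.23) had lower group means on the log2 scale, whereas 3 of 4 Ugt1, 4 of 5 Ugt2 and 4 of 6 Sult genes had higher ones. Gstm1, for example, was 372 and 289 FPKM in uninjected 1 and 2, the libraries with steep GC slopes. It was 113 and 165 in uninjected 3 and 4, and 121 to 170 in treated colon. Gstk1 did not show this, at 90.8, 90.3, 76.4 and 86.3 in uninjected 1 to 4. The part of GC content in these differences was not tested. The lower Ugt2 gene, Ugt2b1 (-0.81), passed the filter on low values through Colon uninjected 3.

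Gsta3, an alpha-class enzyme, stood at 15.6, 19.3, 22.6 and 16.5 FPKM in uninjected and at 9.92, 9.86 and 16.2 in treated colon. Treated 1 and 2 were below every uninjected library and treated 4 was within their range (-0.63, SE 0.29, limma adjusted p = 0.9995). Sult4a1, an orphan member best known from brain, stood at 9.79, 3.24, 1.52 and 1.77 in uninjected and 1.48, 0.952 and 1.02 in treated colon. All treated values were lower, but uninjected 1 alone was far above the rest; the difference of -1.16 (SE 0.56, limma adjusted p = 0.9995) was -0.66 without it. Sult1d1 stood at 49.5, 58.3, 374 and 202 in uninjected and 162, 419 and 219.5 in treated colon. These groups overlapped over a wide range (1.01, SE 0.72, limma adjusted p = 0.9995), and the difference was 0.38 with the GC and length trend removed, 0.58 without uninjected 1 and 1.55 without uninjected 3. The transcript of Sult1d1 has the lowest GC content among the members with a transcript, 32.9%.

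Treated transgenic colon was also set against KO colon; the 3 comparisons of a tissue share libraries and are not independent. Again limma called 0 of 35 tested members, against 0.296% of all genes (37 of 12505). Unadjusted, 3 members passed 0.05, 8.57% against 7.31% of genes, and voom called 0 of 33. The groups did not overlap for 3 members, 8.57% against 8.04% of all genes: Gstm6 and Sult4a1 lower and Ugt2b5 higher. The median log2 difference was -0.08 for members and -0.01 for all genes, with a median interval of 0.62 to each side. Sums of 3 of the 9 marker lists did not overlap between these groups. The 4 goblet cell markers summed to 9003 to 12839 FPKM in KO and 4310 to 6024 in treated colon, and the 7 smooth muscle and fibroblast markers to 1447 to 1961 and 1130 to 1211. The 6 leukocyte markers summed to 107 to 155 in KO and 170.2 to 234 in treated colon, with Lyz2 at 74.2 to 204 over all colon libraries and Ptprc at 0 in at least 1 of them. The part of these cell types in the members' differences was not tested.

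Gstm6, a mu-class gene, stood at 17.7, 19.2, 18.7 and 14.8 FPKM in KO and 12.7, 7.35 and 12.6 in treated colon, so every treated library was lower. The log2 difference was -0.70 (SE 0.22, limma adjusted p = 0.464), and -0.45 without Colon treated 2. Ugt2b5 stood at 25.4, 13.5, 23.6 and 18.8 in KO and 43.6, 28.7 and 26.5 in treated colon, every treated library being higher (0.69, SE 0.27, limma adjusted p = 0.618). Sult1d1 stood at 183.5, 123, 178 and 136 in KO and 171, 444 and 230.1 in treated colon, with treated 1 inside the KO range. Its difference of 0.76 (SE 0.33, limma adjusted p = 0.680) was 0.37 without Colon treated 2. In 6 of 7 Gstm genes and all 6 Gstt, Gsto, Gstk and Gstz genes the treated mean was lower on the log2 scale, none past the test.

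In ileum, uninjected transgenic against KO, limma called 0 of 35 tested members, against 0.00846% of all genes (1 of 11827). At an unadjusted 0.05, 4 members passed (1 higher, 3 lower), 11.4% against 5.42% of all genes, and voom called 0 of 34. The groups did not overlap for 4 members, 11.4% against 8.61% of all genes: Sult1a1, Ugt2b5 and Ugt2b36 lower and Gstm4 higher. The members' median was -0.11 and that of all genes 0.01, with a median interval of 0.87 to each side. All 5 tested Ugt2 genes (-1.33 to -0.11) and all 3 Gsta genes (-0.73 to -0.18) had lower means, and both Gstp genes (0.90 and 1.02) higher ones.

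Sult1a1 stood at 6.14, 8.06, 18.8 and 9.94 FPKM in KO ileum and at 5.52, 2.61 and 3.49 in uninjected ileum. Every uninjected library was lower, at a small part of the colon level (-1.30, SE 0.39, limma adjusted p = 0.665), and the difference was -1.08 without Ileum uninjected 3. Ugt2b5 stood at 7.80, 8.39, 11.8 and 8.97 in KO and 6.86, 1.10 and 4.23 in uninjected ileum (-1.33, SE 0.47, limma adjusted p = 0.665). All 3 were lower, with Ileum uninjected 3 far below; without it the difference was -0.71, and with the GC and length trend removed -0.76. Sult1c2 stood at 1.94, 2.82, 4.10 and 3.75 in KO and 1.74, 0.889 and 2.02 in uninjected ileum, with a small overlap (-0.84, SE 0.33, limma adjusted p = 0.665); it was -0.45 with that trend removed. Sult2b1 stood at 170.2, 193, 209 and 119 in KO and 390.0, 839 and 173 in uninjected ileum, with uninjected 4 inside the KO range (1.18, SE 0.50, limma adjusted p = 0.665). Without Ileum uninjected 3 its difference was 0.62, and without Ileum uninjected 4 it was 1.76.

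**Figure D3:**
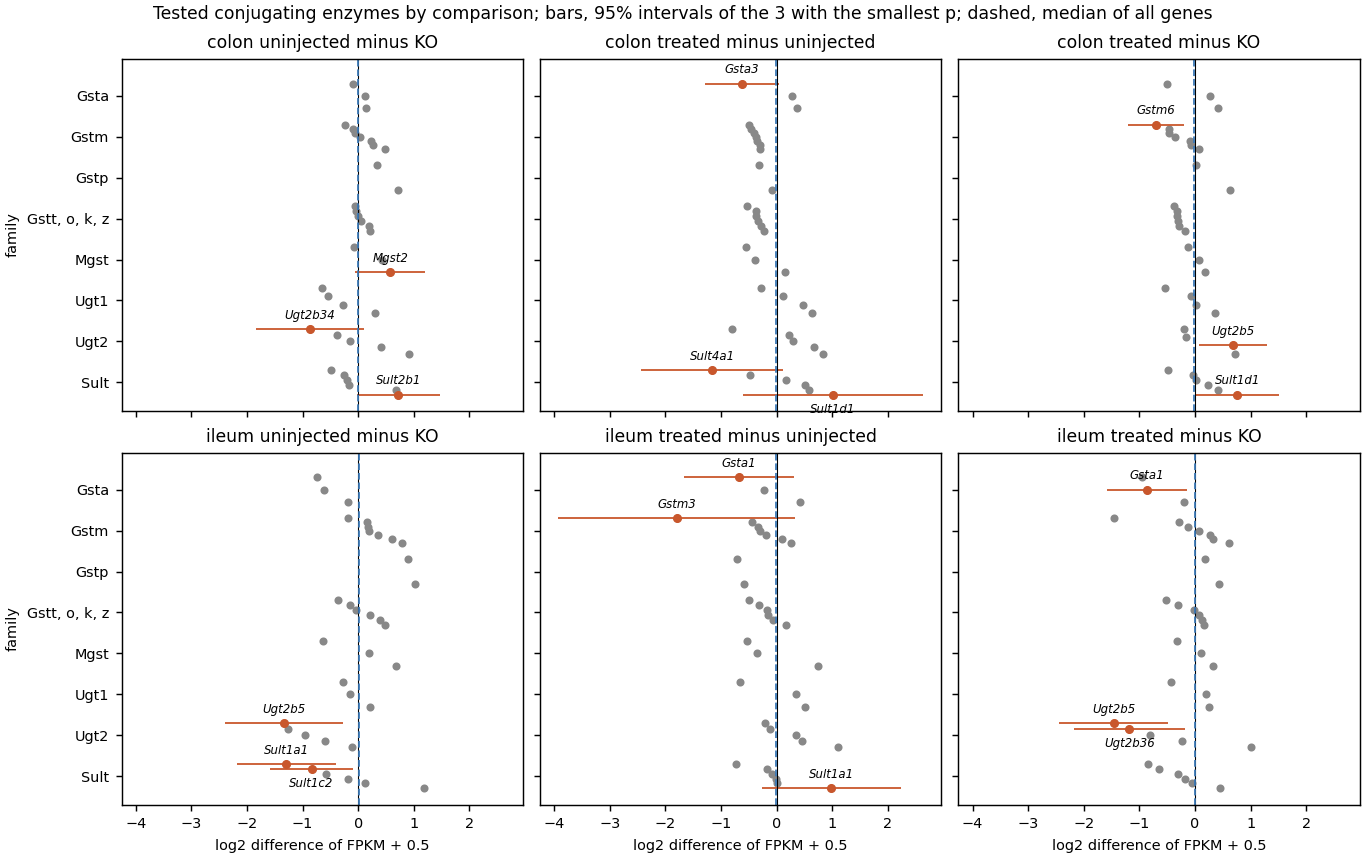
Log2 difference of FPKM + 0.5 for each tested member in the 6 comparisons, by family, with the 95% interval of the 3 members with the smallest p in orange and the median of all genes tested as a dashed line. No member passed the adjusted test in any panel, and most points lie within 1 log2 unit of 0.

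Treatment in ileum gave the widest intervals. Between treated and uninjected ileum, limma called 0 of 35 tested members and 0% of 11815 genes. At an unadjusted 0.05, 0 members passed against 0.821% of genes, voom called 0 of 34, and 1 member, Ugt1a1, had groups that did not overlap (2.86% against 2.7% of genes). The median was -0.17 for members and -0.02 for all genes, and the median interval reached 1.21 to each side. The 5 enterocyte markers summed to 15485 to 36712 FPKM in uninjected and 6132 to 8241 in treated ileum. Most of this sum was Fabp6, and the other markers, Slc10a2, Apoa4, Lct and Sis, each overlapped between these groups. In the overview levels Sis, for example, was 48.3 to 304 FPKM in uninjected and 52.3 to 430 in treated ileum. The part of these markers in the members' values was not tested. Ugt1a1 stood at 18.6, 17.2 and 19.0 in uninjected and 28.8, 29.2 and 21.6 in treated ileum (0.52, SE 0.33, limma adjusted p = 1.00).

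Gstm3 had the lowest log2 difference of that comparison, -1.80 (SE 0.92, limma adjusted p = 1.00). It stood at 23.6, 161 and 23.6 FPKM in uninjected and 32.1, 14.8 and 3.99 in treated ileum, so the difference rested on 1 high and 1 low library; it was -0.88 without Ileum uninjected 3 and -1.03 without Ileum treated 4. Sult1a1 stood at 5.34, 2.52 and 3.42 in uninjected and 3.59, 8.16 and 14.6 in treated ileum, with an overlap (0.98, SE 0.54, limma adjusted p = 1.00). It was 0.54 without Ileum treated 4 and 1.48 without Ileum treated 1. Gsta1 stood at 77.4, 34.6 and 34.1 in uninjected and 26.7, 34.1 and 24.0 in treated ileum (-0.68, SE 0.43, limma adjusted p = 1.00), and at -0.29 without Ileum uninjected 1.

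Against KO, treated ileum again had 0 of 35 members called by limma, with 0.0835% of all genes called (10 of 11974). Before adjustment 6 members passed 0.05, all lower, 17.1% against 3.65% of all genes, and voom called 0 of 34. The groups did not overlap for 2 members, Ugt2b5 and Ugt2b36, 5.71% against 5% of all genes. The median was -0.13 for members and 0.00 for all genes, with a median interval of 0.85 to each side. The sum of the 5 enterocyte markers, most of it the bile acid binding protein gene Fabp6, did not overlap either, with 14908 to 37963 FPKM in KO and 6702 to 8801 in treated ileum. The other enterocyte markers, Slc10a2, Apoa4, Lct and Sis, each overlapped between these groups. In the overview levels Sis, for example, was 211 to 266 FPKM in KO and 52.3 to 430 in treated ileum. The part of Fabp6 or of enterocyte content in the lower members was not tested.

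Ugt2b5 stood at 8.12, 8.73, 12.4 and 9.46 FPKM in KO and 1.15, 5.63 and 4.29 in treated ileum, every treated library being lower (-1.46, SE 0.43, limma adjusted p = 0.939). Ugt2b36 stood at 5.54, 6.04, 7.49 and 5.01 in KO and 0.813, 4.999 and 2.71 in treated ileum (-1.18, SE 0.44, limma adjusted p = 0.939). Both were lowest in Ileum treated 1, and without it their differences were -0.89 and -0.62. Gsta1 stood at 32.8, 62.7, 77.3 and 58.2 in KO and 29.2, 36.8 and 25.6 in treated ileum, with treated 2 above KO 1 (-0.86, SE 0.32, limma adjusted p = 0.939). All 3 Gsta genes had lower means (-0.95 to -0.19).

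The labels do not say whether colon and ileum samples came from the same mice, so no pairing across tissues could be used. The effects of colon and ileum were compared directly by subtracting the colon effect from the ileum effect in 1 limma fit over both tissues. This called 0 of 36 members for uninjected minus KO (0.00809% of all genes), 0 of 37 for treated minus uninjected (0%) and 0 of 36 for treated minus KO (0.00803%). At an unadjusted 0.05, the counts were 0, 1 and 5 members, the last 13.9% against 3.71% of all genes. For treated minus KO, Ugt2b5 had the smallest p, at 0.69 in colon and -1.46 in ileum, a difference of -2.15 (SE 0.54, limma adjusted p = 0.637). Ugt2b36 followed with -1.90 (SE 0.57, limma adjusted p = 0.977).

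Genes that supply, follow or regulate conjugation were described from 6 lists with 60 entries, of which 57 were in the tables and 50 to 52 were tested per comparison. Only Hmox1, which encodes the heme-degrading oxygenase, passed the test, in colon treated against KO. It rose from 4.90, 4.31, 5.20 and 3.97 FPKM in KO to 14.0, 10.9 and 21.5 in treated colon, with no overlap (log2 difference 1.60, SE 0.24, limma adjusted p = 0.0438). The goblet cell, smooth muscle and fibroblast, and leukocyte marker sums given above for this comparison did not overlap either, the last being higher in treated colon as Hmox1 was, and their part in its rise was not tested. The call was lost with a limma adjusted p of 0.0562 by voom and when any KO library or Colon treated 1 was left out, as given with the alternatives. Hmox1 in the other comparisons had log2 differences of 0.86 and 0.74 in colon and 0.28, 0.93 and 1.22 in ileum, none past the test.

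Hmox1 is 1 of 11 tested genes of the glutathione and antioxidant list. In the same list Gpx2, the gut glutathione peroxidase, had a mean of 549 in KO and 331 in treated colon (-0.81, limma adjusted p = 0.618). In the list of sulfate and PAPS supply, the sulfate transporter gene Slc26a2 had means of 85.3 in KO and 50.4 in uninjected colon (-0.99, limma adjusted p = 0.721), and the PAPS synthase gene Papss2 37.2 in KO and 23.4 in treated ileum (-0.70, limma adjusted p = 0.939). In the list of glucuronate supply, Ugp2 had means of 31.4 in KO and 21.4 in uninjected colon (-0.95, limma adjusted p = 0.721). In the list of conjugate export, Abcc3, an efflux pump, had 5.01 in KO and 11.1 in uninjected ileum (1.16, limma adjusted p = 0.665). Among regulators, Tiparp, a target of the aryl hydrocarbon receptor, had 7.28 in KO and 4.14 in uninjected ileum (-0.86, limma adjusted p = 0.665). Ephx1, the microsomal epoxide hydrolase in the list of other enzymes, had 18.6 in KO and 29.0 in uninjected colon (0.59, limma adjusted p = 0.721).

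A few members followed single colon libraries. Ugt2b1, a glucuronosyltransferase known from liver, was 13.2 FPKM in Colon uninjected 3 and at most 0.69 in the other 10 colon libraries, and it passed the filter on low values in colon through that library. Ugt2b36 was also 13.2 there and at most 3.62 elsewhere in colon, and Ugt2a3 was 2.57. Albumin was 334 FPKM in Colon uninjected 3, 73.0 in Colon KO 1, 30.9 in Colon treated 1 and at most 1.3 in the other 8. The summed hepatocyte markers, 6 genes, reached 573 in uninjected, 129 in KO and 56.5 in treated colon, with lowest sums of 7.52, 16.7 and 5.57. All 6 were above 0 in Colon uninjected 3, Colon KO 1 and Colon treated 1, and 2 to 5 of them in each of the other 8. Ugt2b1 was second highest in Colon KO 1 (0.69) and next in Colon treated 1 (0.33), the same libraries as for albumin. Ugt2b5 was likewise the highest of its group in these libraries, at 47.8 in Colon uninjected 3, 23.9 in Colon KO 1 and 41.2 in Colon treated 1. It was also 31.8 in Colon uninjected 4, where albumin was 0.515. The part of hepatocyte transcripts in these values was not tested. Ugt2b34, in contrast, was not raised in Colon uninjected 3, with 79.4 against a colon median of 137.

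**Figure D4:**
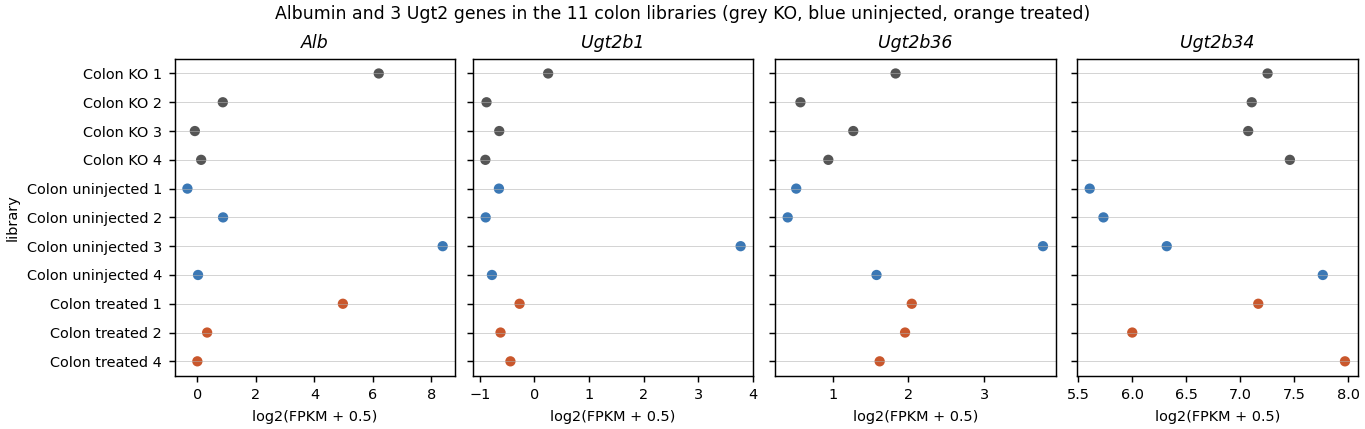
Albumin, Ugt2b1, Ugt2b36 and Ugt2b34 in the 11 colon libraries as log2(FPKM + 0.5), each panel with its own horizontal scale, grey for KO, blue for uninjected and orange for treated. Colon uninjected 3 is the highest library for albumin, Ugt2b1 and Ugt2b36 and not for Ugt2b34.

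Members also followed the libraries with steep GC slopes. In Ileum uninjected 3 and Ileum treated 1, the GC-poor Ugt2b34 and Sult1d1 were at their lowest: Ugt2b34 was 10.6 and 23.2 FPKM against 100.1 to 141 in the other 8 ileum libraries, and Sult1d1, 40.3 and 21.5 against 75.5 to 121. The GC-rich Sult2b1 was 839 and 356 against 119 to 390.0, and Gstp1 was 1767 and 1037 against 281 to 959. Enterocyte genes also differed in these libraries, with Apoa4, a lipoprotein gene of absorptive cells, at 2564 and 2374 FPKM against 78.8 to 661 in the others, and Slc10a2, the ileal bile acid carrier, at 15.5 and 20.8 against 67.7 to 278. The parts of GC content and of position along the gut in these levels were not tested.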

How the data were processed

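RNA of 21 samples was sequenced from poly(A)-selected libraries and, per the labels' protocols, mapped in CLC Genomics Workbench. The genome build mm9 and the tools DESeq2, DESeq 1.14.0 and kallisto 0.45.0 are listed, without their use, in the submitters' processing notes. The authors deposited FPKM per gene in 6 tables, each scaled over its own 2 groups, so that a library differs between tables by 1 constant factor. The design text counts 3 uninjected and 4 treated colon samples; the labels and columns, which were followed, give 4 and 3. Overview levels took KO and uninjected values from the uninjected against KO table and treated values from the treated against uninjected table; each comparison used its own table.

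From the deposited FPKM, log2(FPKM + 0.5) was fitted, for every gene averaging 1 FPKM or more, by limma 3.58.1 (R 4.3.3) with an intensity trend, two-sided, with Benjamini-Hochberg adjustment over all genes tested and a threshold of 0.05. Reads were recovered for each gene from the ratios of its values between libraries. Its lowest value was given the smallest count, up to 20000, that made all libraries whole within a tolerance of 0.01. Such counts were found for 81.03% of 18779 colon and 81.18% of 18255 ileum genes. They can lie far above the true reads. In Ileum KO 1, Gsto2 at 0.301 FPKM came out at 1757 reads and Gstm1 at 38.8 FPKM at 946. Recovered reads served for depth and for voom, an alternative, which both carry this error, and their totals cover resolved genes only. Fits were tested on simulated data.

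The members and gene lists were chosen with earlier results of these data known. Members named with values by library are, per comparison, the 3 with the smallest p whose higher group has a mean of at least 2 FPKM, and, as ranges, the 2 highest of each family in each tissue. Of list genes, those past the threshold were named, and otherwise examples of the 2 with the smallest p per list. Sult2b1 and Ugt1a1 in ileum and the members whose groups did not overlap were added after their values were seen. Python 3.11.15 with pandas 2.3.3 and numpy 2.4.6 handled the tables, coding sequences were aligned with Biopython 1.88 and plots drawn with matplotlib 3.10.9.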

Additional observations from a re-analysis of the deposited data

Results flagged for a closer look

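In 106 sets of 4 libraries of 1 group, 3 values lay far from the others of their group by Dixon's test; chance flags about 1 in 20 such sets. Colon uninjected 3 held 13.2 FPKM of Ugt2b1, where the remaining 3 libraries of that group had 0.0394 to 0.138. Ugt2b36 was 13.2 FPKM in the same library and 0.826 to 2.49 in the other 3. Gstm1 was 52.5 FPKM in Ileum KO 3 and 38.8 to 40.7 in the other 3 KO ileum libraries.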

How the results depend on the processing

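The count of members called was 0 in all 154 alternative fits that were run: other pseudocounts, no filter, quantile or median scaling, no intensity trend, voom, each library left out in turn (0 to 0), doubted libraries left out, and the GC and length trend removed, the last 2 kinds partly chosen after seeing the data. Over the same alternatives the count of all genes called ranged from 1 to 68 for colon uninjected minus KO (10 as reported), 0 to 4 for treated minus uninjected (0) and 14 to 58 for treated minus KO (37), and in ileum from 0 to 5 (1), 0 to 0 (0) and 3 to 14 (10). Of 315 alternative values for 19 named log2 differences, 313 kept their sign. The other 2 came from labelled sex as a covariate in colon uninjected minus KO, where Sult2b1 was -0.14 and Ugt2b34 0.54; with all KO libraries and only Colon uninjected 4 of the uninjected ones labelled male, these are that 1 library minus the KO mean and no test of an effect adjusted for sex, and Colon uninjected 3, labelled female, has Ddx3y at 12.1 FPKM. With the replicate block in that comparison the count of members called was also 0, and 3 members passed at an unadjusted 0.05. Correlations of same-numbered libraries were 0.004, -0.003 and -0.006 for numbers 1 to 3, below the best other pairing (0.049, 0.226 and 0.363). For number 4 the correlation was 0.671, against -0.198 for the best other pairing. The numbers thus do not pair the samples throughout, and whether the libraries numbered 4 share a factor was not tested. In the other comparisons, no paired analysis was possible because the columns carry numbers that do not tie to a labelled sample. Hmox1 in colon treated minus KO stayed between 1.32 and 1.82 and passed in 5 of 17 alternatives, with adjusted p from 0.0265 to 0.192; without 1 KO library or Colon treated 1 it was at least 0.107. Side by side, centring libraries on their median gave 8 members higher in every colon library and 0 higher in every ileum library, and leaving out Colon uninjected 3, Ileum uninjected 3 and Ileum treated 1 gave 11 and 2. With 3 or 4 libraries a group, differences within the intervals given could not be detected, and larger ones could be missed too. In ileum treated minus KO, Ugt2b5 at -1.46 was not called, although the median interval reached 0.85 to each side.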
